A study of Rattus norvegicus with 9 samples.

Results

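The matrix metalloproteinases (MMPs) and their tissue inhibitors (TIMPs) were followed in rat tissue formed within nerve conduits. They were chosen by name as a family of 10 genes, Mmp2, Mmp3, Mmp9, Mmp12, Mmp13, Mmp14, Mmp19, Timp1, Timp2 and Timp3. Of these, 9 were found among the 21486 genes of the deposited table, and all 9 passed the filter on low counts that left 15659 genes for testing. Timp2 was not analysed here. RNA sequencing had been done on tissue taken 14 days after a 2 cm gap in the sciatic nerve was bridged. The AFMC-AA-SP conduit was filled with aligned fibers and lengthwise microchannels, carried spermidine (SP) adsorbed on the fiber surface and held L-ascorbic acid (AA) inside the fibers. The AFMC conduit had the same aligned fibers and microchannels with neither molecule. The Hollow conduit was a tube with nothing inside. Each group had 3 libraries, all from rats with the same kind of nerve defect and with no uninjured nerve among the groups. The strain, sex and age of the rats are not in the labels, nor is which animal each library came from, so p-values measure only the spread between these libraries.

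MMPs are zinc enzymes that cut collagens, laminins and other matrix proteins outside the cell, and most are made as inactive proenzymes that another protease must open. TIMPs block them by binding the active site. In injured peripheral nerve these enzymes are known for breaking down the basement membrane and the blood-nerve barrier, for helping macrophages enter and for clearing a path for migrating Schwann cells and regrowing axons.

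Library totals ran from 18314489 to 26074134 counts. AFMC replicate 3 stood apart: on the first principal component, with 36.3% of the variance of log2 CPM (counts scaled to the library total), it lay at 62.5, and the other 8 libraries lay from -20.2 to 8.77. Fold changes of members in the comparisons that use AFMC are therefore also given without it. A set of 9 Schwann cell markers, among them Sox10 and Ngfr, was detected in every library, and their summed level was 789 to 910.1 CPM in AFMC-AA-SP, 459.9 to 637 CPM in AFMC and 823 to 871 CPM in Hollow. The AFMC libraries lay below all others in this sum. Macrophage markers summed to 6011 to 7926 CPM in AFMC-AA-SP, 5988 to 8727 CPM in AFMC and 4630 to 7219 CPM in Hollow. In bulk tissue, fewer cells of a type and less RNA per cell cannot be told apart.

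The family was strongly expressed, and the 9 genes together took 0.621% to 0.860% of all counts in a library. Between genes, levels were compared in FPKM, which are counts scaled to gene length and library total. Mmp12, the elastase of macrophages, had the highest level, at 1451 ± 481 FPKM (SD over all 9 libraries, as for the levels that follow), and ranked number 25 among all genes. Mmp14, a membrane-bound enzyme that cuts collagen and opens the proenzyme of Mmp2, had 528 ± 60.7 FPKM. Mmp2, a gelatinase that fibroblasts and Schwann cells make, had 448 ± 69.2 FPKM. Mmp12 lay above Mmp14 in 9 of 9 libraries, while Mmp14 lay above Mmp2 in 8 and their ranges overlapped.

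The inhibitors came next. Timp1, a secreted inhibitor that binds the proenzyme of Mmp9, had 307 ± 74.4 FPKM, and Timp3, an inhibitor that stays bound to the matrix, had 144 ± 35.0 FPKM. Timp1 lay above Timp3 in every library, with ranges that did not overlap. Timp3 and Mmp9, a gelatinase of macrophages, neutrophils and osteoclasts, were not separated by level: Mmp9 had 131 ± 52.2 FPKM, and Timp3 was the higher in 5 of 9 libraries. The lowest levels were those of Mmp13, Mmp19 and Mmp3. Mmp13, the main collagenase of rodents, had 78.2 ± 56.4 FPKM, Mmp19, an enzyme with a broad range of basement membrane substrates, 68.8 ± 11.5 FPKM, and Mmp3, a stromelysin that also opens other proenzymes, 44.0 ± 36.5 FPKM. Mmp13 was above Mmp19 in only 4 of 9 libraries.

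**Figure D1:**
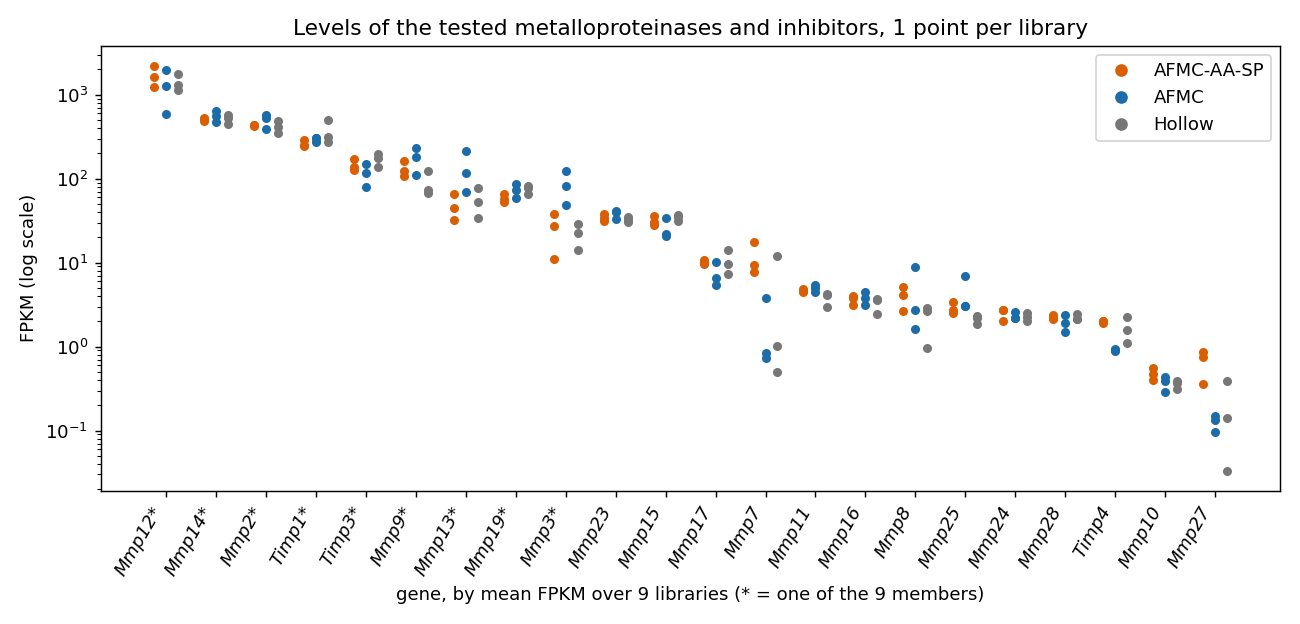
Levels in FPKM (log axis) of the 9 members, marked with an asterisk, and of 13 related genes that passed the filter, with 1 point per library and colours for the conduit groups. Mmp12 is at the top with a mean of 1451 FPKM and the 9 members hold the 9 highest places. The members were chosen with earlier results of these data known.

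Mmp13, Mmp12 and Mmp3 lie close together on chromosome 8, at 4497960 to 4508239, 4581785 to 4599611 and 4640416 to 4653961 on the plus strand as the deposited table gives the gene spans, in a genome build not given in the sources used here. The other members lie apart, with Mmp9 on chromosome 3 (153683858 to 153692120), Mmp14 on 15 (27887727 to 27899864), Mmp2 on 19 (14154657 to 14182870), Mmp19 on 7 (1221343 to 1229555), Timp3 on 7 (17521919 to 17571839) and Timp1 on X (1212972 to 1217664). Timp1 and Timp3 lie wholly within the spans of Syn1 and Syn3, on the opposite strand, and Mmp12 shares 1221 bp with Mmp1b, also on the opposite strand. The libraries keep the strand, but the counting setting is not given in the sources used here. Syn1 and Syn3 averaged 2.86 and 2.38 CPM and Mmp1b 0.749 CPM. Mmp3 also has a close relative in Mmp10, and how reads that match both were assigned is not given. Mmp10 had 129 counts over all 9 libraries.

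The promoters of these 3 are shown because Mmp3 and Mmp13 had the largest fold changes of the family and Mmp12, between them on the chromosome, did not share them; that of Timp1 is shown beside them as the more abundant of the inhibitors analysed. Each is 300 bases from RefSeq, build GRCr8, running 5′ to 3′ on the gene's strand from 250 bases before the start site to 50 after it. Capitals mark TGANTCA, a pattern that AP-1 factors such as Jun and Fos are known to bind, which reads the same on both strands. Only this exact pattern was searched for, so sites with other letters would be missed.
Mmp3, chr8:12925031-12925330, strand plus: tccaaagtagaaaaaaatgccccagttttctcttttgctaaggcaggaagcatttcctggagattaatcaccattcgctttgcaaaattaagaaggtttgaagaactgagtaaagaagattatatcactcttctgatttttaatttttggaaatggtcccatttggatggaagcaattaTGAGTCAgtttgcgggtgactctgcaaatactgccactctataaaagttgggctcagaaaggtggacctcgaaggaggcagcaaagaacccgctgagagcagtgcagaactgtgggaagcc
Mmp13, chr8:12782579-12782878, strand plus: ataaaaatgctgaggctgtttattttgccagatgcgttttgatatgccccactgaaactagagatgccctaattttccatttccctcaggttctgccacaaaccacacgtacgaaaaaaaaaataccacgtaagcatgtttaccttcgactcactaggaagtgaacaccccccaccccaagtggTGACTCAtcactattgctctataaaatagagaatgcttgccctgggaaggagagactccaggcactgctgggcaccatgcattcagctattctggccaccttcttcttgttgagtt
Mmp12, chr8:12866402-12866701, strand plus: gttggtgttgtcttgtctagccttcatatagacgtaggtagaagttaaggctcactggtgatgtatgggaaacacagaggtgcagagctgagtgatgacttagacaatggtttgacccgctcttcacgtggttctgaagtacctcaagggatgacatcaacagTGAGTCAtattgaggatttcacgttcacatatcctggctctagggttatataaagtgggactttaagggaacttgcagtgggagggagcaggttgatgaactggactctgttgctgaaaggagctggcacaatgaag
Timp1, chrX:3771073-3771372, strand minus: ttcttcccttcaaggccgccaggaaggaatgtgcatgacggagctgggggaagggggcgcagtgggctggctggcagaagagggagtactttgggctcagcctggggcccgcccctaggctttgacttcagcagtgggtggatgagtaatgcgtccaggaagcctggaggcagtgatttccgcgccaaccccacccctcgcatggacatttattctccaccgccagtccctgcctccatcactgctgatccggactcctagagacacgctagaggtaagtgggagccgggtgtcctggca
The motif begins 71 bases before the start site in Mmp3, 66 bases before it in Mmp13 and 87 bases before it in Mmp12, and each of these promoters also holds TATAAA on the gene's strand, 32, 47 and 39 bases before the start. The letters of the motifs do not overlap. Timp1 holds neither TGANTCA nor TATAAA. Its sequence does hold tgagtaa, which is close to TGANTCA but lay outside the search. Whether AP-1 factors bind there was not tested. Of the 6 listed genes with an entry (Mmp3, Mmp12, Mmp13, Timp1, Timp2 and Timp3), Mmp3, Mmp12 and Mmp13 hold TGANTCA. So do 4 of 14 further MMP or TIMP promoters (Mmp1, Mmp7, Mmp10 and Mmp20), all on chromosome 8. Mmp8 and Mmp27, also on chromosome 8, hold neither TGANTCA nor TATAAA. Among all 33469 promoters of this length, 7.33% hold TGANTCA, 8.8% hold TATAAA and 0.911% hold both.

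Within the family, the collagenase and the stromelysin varied most between libraries. Mmp13 had 113, 82.0 and 169 CPM in AFMC-AA-SP replicates 1 to 3, with 312, 184 and 574 CPM in AFMC and 134, 89.3 and 197 CPM in Hollow. Mmp3 had 67.3, 19.6 and 50.5 CPM in AFMC-AA-SP, with 155, 90.8 and 233 CPM in AFMC and 25.6, 52.4 and 40.7 CPM in Hollow. AFMC replicate 3 was the highest library for both genes and AFMC replicate 1 the next. The 3 AFMC libraries lay above all others for Mmp3, and for Mmp13 they lay above AFMC-AA-SP but overlapped with Hollow. The ratio of the highest to the lowest library was 11.9 for Mmp3, and the SDs of log2 CPM of both genes were at percentiles 99.0 and 98.2 of all tested genes.

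The gelatinases behaved unlike each other. Mmp9 had 327, 367 and 509 CPM in AFMC-AA-SP, with 728, 566 and 351 CPM in AFMC and 202, 229 and 378 CPM in Hollow. AFMC replicates 1 and 2 were the highest libraries, and AFMC replicate 3 fell inside the Hollow range. Mmp2 had 1322, 1350 and 1385 CPM in AFMC-AA-SP, with 1265, 1683 and 1883 CPM in AFMC and 1504, 1096 and 1285 CPM in Hollow. All groups overlapped, and the AFMC-AA-SP libraries were the closest together, with a coefficient of variation of 2.35% against 19.6% in AFMC and 15.8% in Hollow.

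The macrophage elastase and the membrane-bound enzyme overlapped between all groups. Mmp12 had 3181, 2445 and 4441 CPM in AFMC-AA-SP, with 4080, 2584 and 1245 CPM in AFMC and 2269, 2663 and 3460 CPM in Hollow. Its lowest library was AFMC replicate 3, the one in which Mmp3 and Mmp13 were highest. Mmp14 had 1284, 1372 and 1466 CPM in AFMC-AA-SP, with 1317, 1794 and 1598 CPM in AFMC and 1541, 1238 and 1408 CPM in Hollow, the smallest spread of the family with a highest to lowest ratio of 1.45. Mmp19 had 130, 159 and 145 CPM in AFMC-AA-SP, with 224, 187 and 156 CPM in AFMC and 201, 194 and 161 CPM in Hollow. Its AFMC-AA-SP libraries lay just below the Hollow ones, with 159 CPM the highest of the first and 161 CPM the lowest of the second.

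Of the inhibitors, Timp1 had 210, 248 and 223 CPM in AFMC-AA-SP, with 276, 241 and 281 CPM in AFMC and 273, 432 and 232 CPM in Hollow. Hollow replicate 2 stood above the other 8 libraries, which lay between 210 and 281 CPM. Timp3 had 293, 216 and 240 CPM in AFMC-AA-SP, with 209, 265 and 146 CPM in AFMC and 305, 341 and 238 CPM in Hollow. Its lowest library was AFMC replicate 3, and the groups overlapped.

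**Figure D2:**
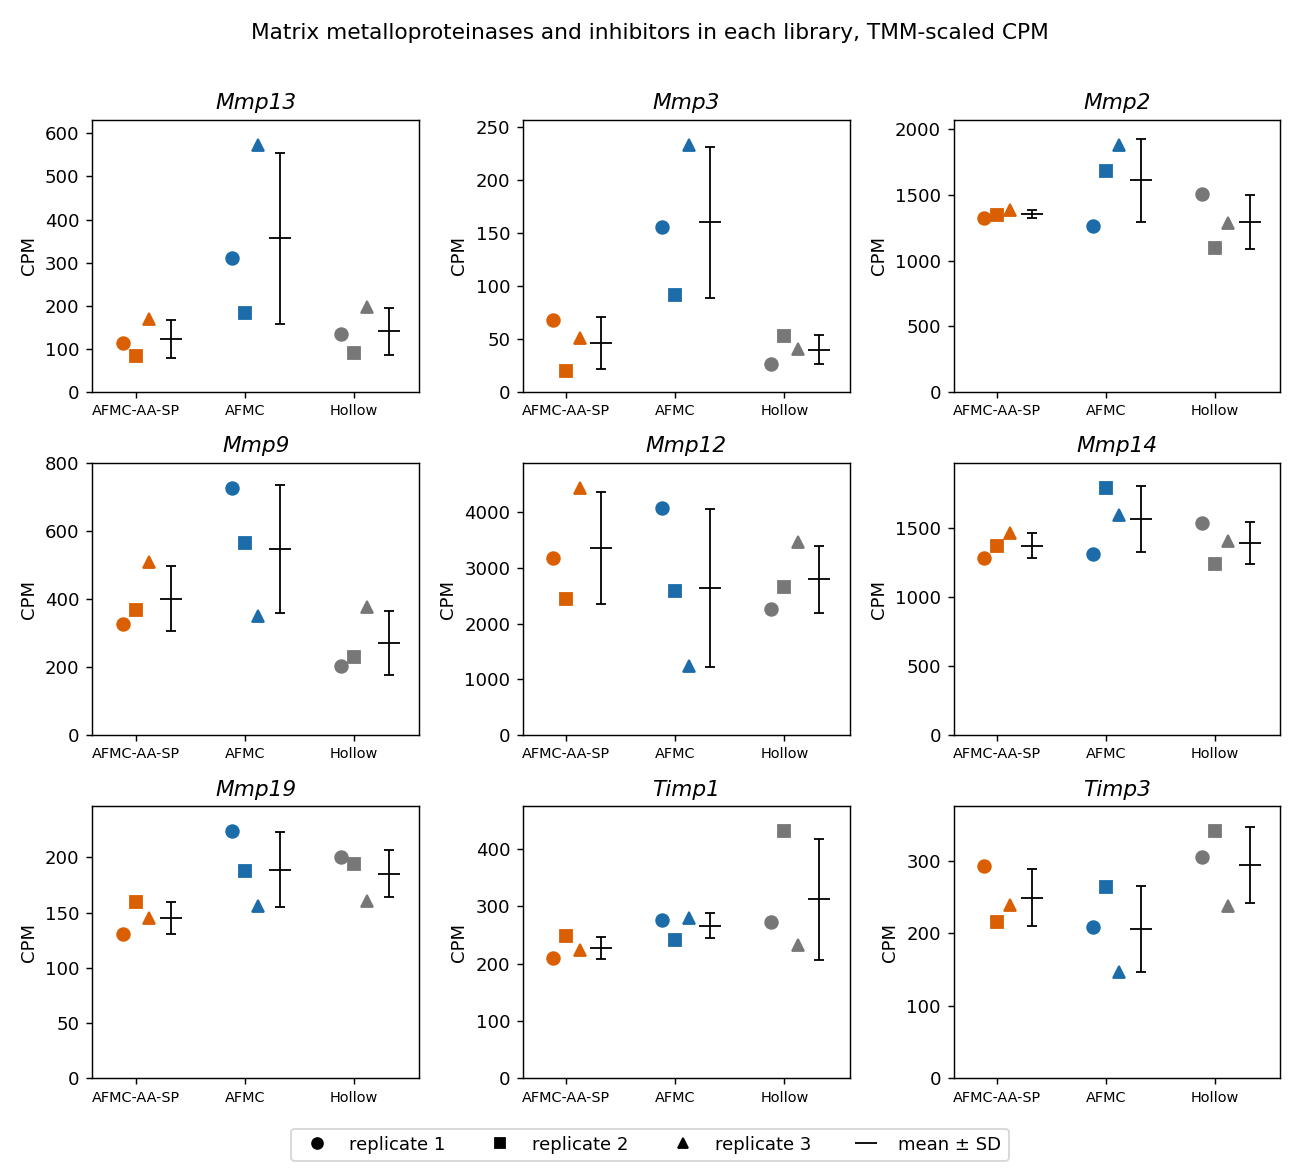
CPM of each of the 9 genes in every library, with the conduit groups along the x axis, symbols for replicate numbers and a bar for the group mean ± SD (n = 3). For Mmp3 the AFMC libraries, at 90.8 to 233 CPM, lie above all libraries of the other groups, while Mmp12 and Mmp14 overlap throughout.

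Setting AFMC beside Hollow asks what fibers and channels inside the tube change. The enzymes Mmp3, Mmp13 and Mmp9 had the largest fold changes of the family, and the inhibitors were on the lower side. Mmp3 averaged 160 ± 71.2 CPM in AFMC, against 39.6 ± 13.4 CPM in Hollow (SD, n = 3 each), for a log2 fold change of 2.01 ± 0.48 (SE; 95% interval 0.92 to 3.10). Mmp13 averaged 356 ± 199 CPM in AFMC, against 140 ± 54.2 CPM in Hollow, for a log2 fold change of 1.35 ± 0.44 (SE). Mmp9 averaged 548 ± 189 CPM in AFMC, against 270 ± 94.8 CPM in Hollow, for a log2 fold change of 1.02 ± 0.31 (SE). None of them passed edgeR's quasi-likelihood test adjusted over all genes, with adjusted p = 0.115, 0.158 and 0.141. DESeq2 gave adjusted p = 0.0115 for Mmp3, 0.0911 for Mmp13 and 0.0161 for Mmp9.

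The rest of the family stood nearer to no difference. Timp3 averaged 206 ± 59.4 CPM in AFMC, against 295 ± 52.5 CPM in Hollow, for a log2 fold change of -0.51 ± 0.22 (SE), with adjusted p = 0.243 by edgeR. Timp1 had -0.23 ± 0.20, which was 0.08 without Hollow replicate 2. Mmp2 had 0.31 ± 0.16, with a 95% interval from -0.05 to 0.68, and Mmp14 had 0.17 ± 0.13, with an interval from -0.13 to 0.47. Mmp19 had 0.03 ± 0.14 and Mmp12 -0.09 ± 0.39 (SE), with a 95% interval for Mmp12 from -0.96 to 0.79. Without AFMC replicate 3, Timp3 had -0.32 (adjusted p = 0.457 by edgeR), Mmp2 0.19, Mmp14 0.16, Mmp19 0.15, Mmp12 0.25 and Timp1 -0.27.

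Over the family, edgeR called 0 of 9 genes in AFMC against Hollow, where 0.00% of all tested genes were called, and DESeq2 called Mmp3 and Mmp9, where it called 7.08% of all. At an unadjusted p under 0.05, 3 of 9 were higher (Mmp3, Mmp13 and Mmp9) and 1 was lower (Timp3), against 8.40% of all genes higher and 11.1% lower. Groups did not overlap for 1 of 9 genes, Mmp3, which was higher, against 10.2% of all genes higher and 12.3% lower without overlap. The median log2 fold change of the 9 was 0.17, against 0.01 for all tested genes. Without AFMC replicate 3, the log2 fold changes of Mmp3, Mmp13 and Mmp9 were 1.64, 0.82 and 1.26, with adjusted p = 0.236, 0.364 and 0.197 by edgeR. Without AFMC replicate 2, Mmp3 had 2.29 and was called by edgeR (adjusted p = 0.0356), in a fit that called 905 genes in place of 0.

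Setting AFMC-AA-SP beside AFMC asks what loading the fibers with both molecules changes. It has the AFMC libraries in common with the comparison above, so opposite signs in the 2 are no independent sign of a reversal. The collagenase and the stromelysin again had the largest fold changes, now on the lower side. Mmp3 averaged 45.8 ± 24.2 CPM in AFMC-AA-SP, against 160 ± 71.2 CPM in AFMC (SD, n = 3 each), for a log2 fold change of -1.80 ± 0.48 (SE; 95% interval -2.89 to -0.72). Mmp13 averaged 121 ± 44.3 CPM in AFMC-AA-SP, against 356 ± 199 CPM in AFMC, for a log2 fold change of -1.55 ± 0.45 (SE; 95% interval -2.56 to -0.55). For both genes every AFMC-AA-SP library lay below every AFMC library. Adjusted p by edgeR was 0.149 for Mmp3 and 0.163 for Mmp13, and by DESeq2 0.0353 and 0.0594.

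Mmp19 averaged 145 ± 14.5 CPM in AFMC-AA-SP, against 189 ± 34.2 CPM in AFMC, for a log2 fold change of -0.38 ± 0.14 (SE), with adjusted p = 0.237 by edgeR. Mmp9 had -0.45 ± 0.31, Mmp2 -0.25 ± 0.16 and Mmp14 -0.19 ± 0.13 (SE). These 3 intervals included 0 and ran down to -1.15, -0.62 and -0.49. Mmp12, at 3356 ± 1009 CPM in AFMC-AA-SP, against 2636 ± 1418 CPM in AFMC, had 0.35 ± 0.39 (SE), which was 0.01 without AFMC replicate 3. Of the inhibitors, Timp1 had -0.23 ± 0.20 and Timp3 0.27 ± 0.22 (SE). Without AFMC replicate 3, Timp3 had 0.08, Timp1 -0.19, Mmp2 -0.12, Mmp14 -0.18, Mmp19 -0.51 and Mmp9 -0.69.

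Over the family, edgeR called 0 of 9 genes in AFMC-AA-SP against AFMC, where 0.00% of all tested genes were called, and DESeq2 called Mmp3, where it called 4.12% of all. At an unadjusted p under 0.05 there were 3 of 9, Mmp3, Mmp13 and Mmp19, all lower, against 10.1% of all genes higher and 7.21% lower. Groups did not overlap for 2 of 9 genes, Mmp3 and Mmp13, both lower, against 12.5% of all genes higher and 10.3% lower without overlap. The median log2 fold change of the 9 was -0.25, against -0.01 for all tested genes. Without AFMC replicate 3, Mmp3 had -1.43 and Mmp13 -1.03 (adjusted p = 0.293 and 0.314 by edgeR). Without AFMC replicate 2, Mmp13 had -1.87 and was called by edgeR (adjusted p = 0.0478), in a fit that called 580 genes in place of 0.

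**Figure D3:**
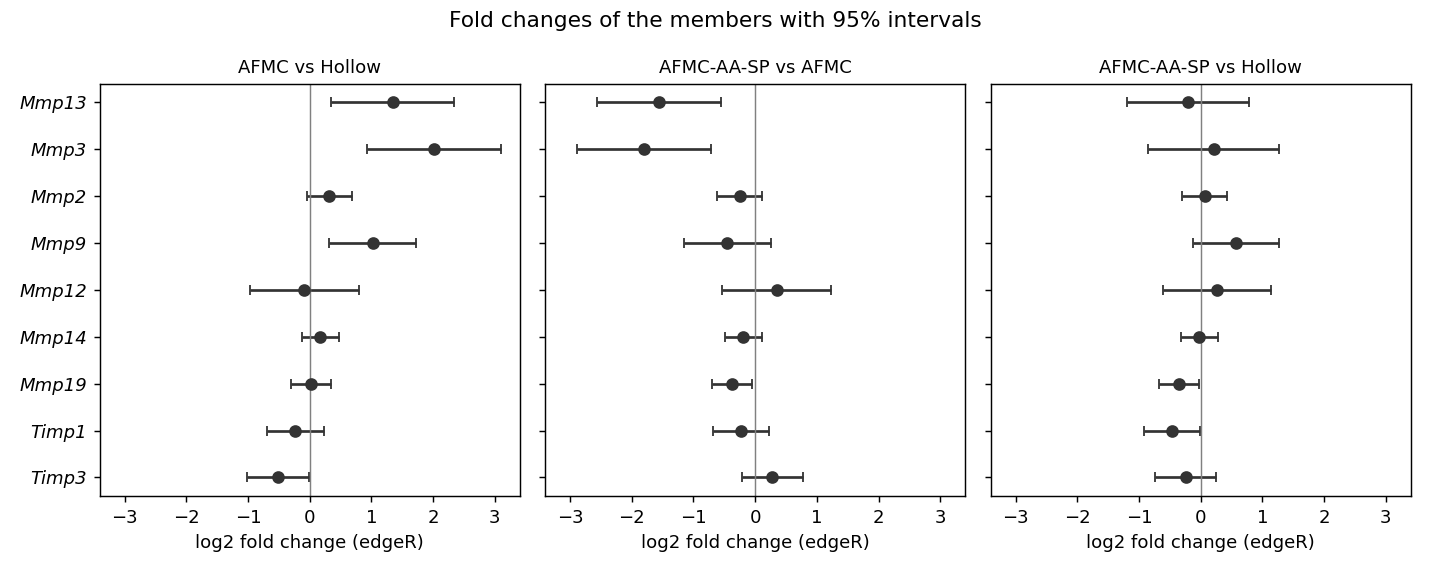
Log2 fold change of each gene (x axis) in each of 3 comparisons, with bars for the 95% interval from the edgeR fit. Intervals of Mmp3 and Mmp13 lie above 0 in AFMC against Hollow and below 0 in AFMC-AA-SP against AFMC, 2 comparisons that share the AFMC libraries, and no gene passed the adjusted test.

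Between AFMC-AA-SP and Hollow, no member had an estimated log2 fold change as large as 1. The 95% intervals of Mmp3, Mmp9, Mmp12 and Mmp13 did reach beyond 1 in size. They ran from -0.13 to 1.27 for Mmp9 and from -0.62 to 1.14 for Mmp12. Mmp9 averaged 401 ± 95.5 CPM in AFMC-AA-SP, against 270 ± 94.8 CPM in Hollow (SD, n = 3 each), for a log2 fold change of 0.57 ± 0.31 (SE). Timp1 averaged 227 ± 19.1 CPM in AFMC-AA-SP, against 312 ± 105 CPM in Hollow, with -0.46 ± 0.20, which was -0.15 without Hollow replicate 2. Mmp19, at 145 ± 14.5 CPM in AFMC-AA-SP, against 185 ± 21.4 CPM in Hollow, had -0.35 ± 0.14. Mmp3 had 0.21 ± 0.47 and Mmp13 -0.21 ± 0.44 (SE), with 95% intervals from -0.85 to 1.27 and from -1.19 to 0.78. These intervals are too wide to show that the loaded conduit and the empty tube were alike in either gene. Mmp12, Mmp2 and Mmp14 had 0.26 ± 0.39, 0.06 ± 0.16 and -0.02 ± 0.13, and Timp3 had -0.24 ± 0.22 (SE).

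Adjusted p by edgeR was 0.9999 for all 9 genes in AFMC-AA-SP against Hollow, and 0 were called, where 0.00% of all tested genes were; DESeq2 also called 0 of 9, where it called 0.0512% of all. At an unadjusted p under 0.05 there were 2 of 9, Mmp19 and Timp1, both lower, against 1.69% of all genes higher and 1.55% lower. Groups did not overlap for 1 of 9 genes, Mmp19, which was lower, against 5.05% of all genes higher and 4.96% lower without overlap, and with an offset for gene length the groups overlapped for all 9.

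The balance of a gelatinase and its inhibitor was taken as the ratio of Mmp9 to Timp1 FPKM within a library, which needs no scaling between libraries. The ratio was 0.442, 0.420 and 0.645 in AFMC-AA-SP, 0.745, 0.666 and 0.354 in AFMC and 0.210, 0.150 and 0.461 in Hollow. The lowest values were those of Hollow replicates 1 and 2, and Hollow replicate 3 lay inside the range of the other groups. On the log2 scale the ratio averaged -0.84 ± 0.58 in AFMC and -2.03 ± 0.83 in Hollow (SD, n = 3 each), a difference of 1.20 with an exact permutation p = 0.2, two-sided. In AFMC-AA-SP it averaged -1.02 ± 0.34, a difference of 1.01 from Hollow (exact permutation p = 0.3) and of -0.18 from AFMC (exact permutation p = 0.8). Adjusted over the 3 comparisons these p were 0.45, 0.45 and 0.8, and 3 against 3 libraries cannot give an unadjusted p below 0.1.

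**Figure D4:**
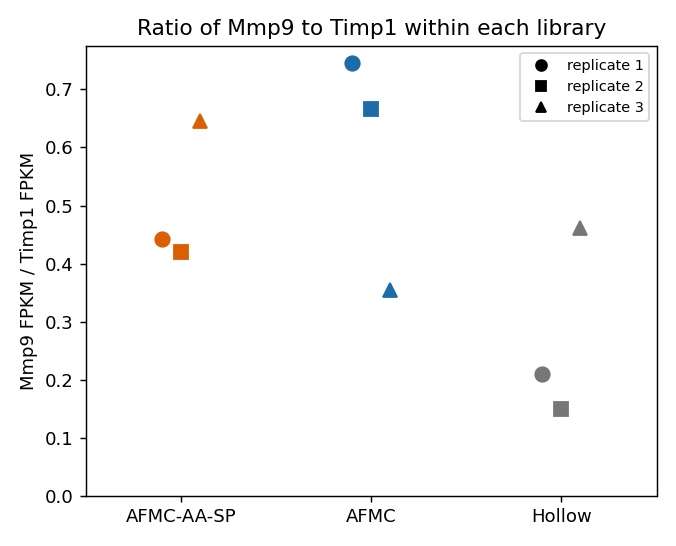
Ratio of Mmp9 FPKM to Timp1 FPKM (y axis) in each library, with conduit groups along the x axis and symbols for replicate numbers. Hollow replicates 1 and 2, at 0.210 and 0.150, are the lowest points, and Hollow replicate 3 at 0.461 lies among the other groups.

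Members also varied against each other across the 9 libraries. Likeness was measured by the SD over the 9 libraries of the log2 ratio of a pair of genes, which is small when they keep a constant proportion. The most alike pair was Mmp2 and Mmp14, the gelatinase and the enzyme that opens its proenzyme, at 0.12, where Mmp2 alone had an SD of 0.23 and Mmp14 of 0.17. The next pair was Mmp19 and Timp1 at 0.26, no smaller than the SD of Mmp19 alone, 0.25, where Timp1 alone had 0.30. Mmp9 and Timp1 had 0.77 and Mmp3 and Timp1 1.16, where Mmp9 alone had 0.59 and Mmp3 1.14. All these values come from the same 9 libraries and are descriptions.

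**Figure D5:**
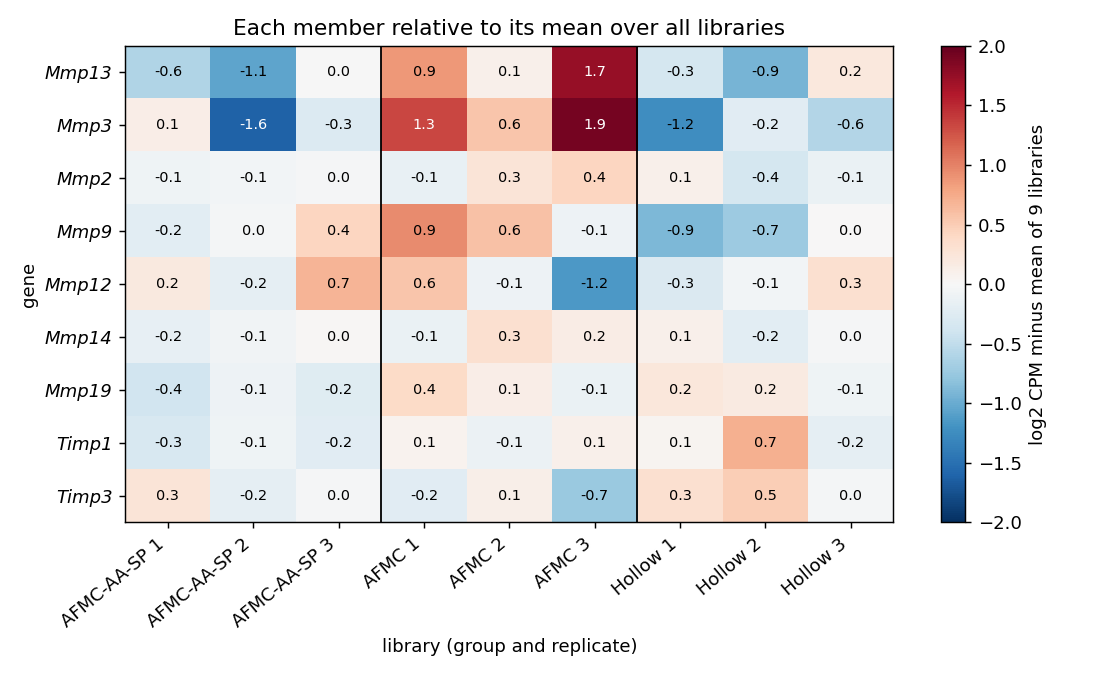
Log2 CPM of each gene in each library minus its mean over all 9 libraries, in colour from blue (below) to red (above). AFMC replicate 3 is at 1.92 for Mmp3 and 1.75 for Mmp13, while Mmp12 and Timp3 have their lowest values in the same library.

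By the same measure, the genes outside the family most like Mmp3 were Ccl3 (SD 0.56), a chemokine of macrophages, Tnf (0.60), the cytokine tumour necrosis factor, and Ccrl2 (0.62), a chemokine-binding receptor, where Mmp3 alone had 1.14. Those most like Mmp13, with its own SD of 0.89, were Batf (0.42), an AP-1 family factor of lymphocytes, Siglec10 (0.45) and Cd7 (0.46). Mmp9, with an SD of 0.59, was most like Acp5 (0.28), the tartrate-resistant phosphatase of osteoclasts and some macrophages, then the lysosomal protease Ctsd (0.32) and Smpdl3a (0.35). Mmp12, with an SD of 0.55, was most like Rab7b, Alcam and Il18bp, at 0.19 to 0.20. Each was picked as the closest among 10971 genes.

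The closest genes of the inhibitors were of other kinds. Timp1, with an SD of 0.30, was most like P4ha2 (0.11), a collagen prolyl hydroxylase, Col5a3 (0.11), a collagen chain, and Asf1b (0.12), a histone chaperone. Timp3, with an SD of 0.36, was most like Brsk2 (0.11), Kif1a (0.11) and Gldn (0.12), the last of which is a Schwann cell protein of the node of Ranvier. The stable enzymes had small SDs themselves and close partners. Mmp2 was most like Tbkbp1, Rasip1 and Pgap6, at 0.08 to 0.09, Mmp14 like Ttyh3, Pawr and Dtx3, all at 0.08, and Mmp19 like Lmna, P2ry10b and Smg9, at 0.10 to 0.11.

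Marker sums of other cells differed between the libraries. Neutrophil markers, with all 12 listed genes detected in every library, summed to 72.3 to 113 CPM in AFMC-AA-SP, 67.7 to 576 CPM in AFMC and 34.8 to 55.3 CPM in Hollow, and the highest sum was in AFMC replicate 3, the library with the most Mmp3 and Mmp13. Its leading marker was Csf3r, at 277 CPM. The neutrophil markers were split: in AFMC against Hollow 7 of 11 tested had a positive log2 fold change and 4 a negative one. The negative ones were Mpo, Prtn3, Ltf and Cxcr1, all of low level. DESeq2 called 4 higher and 1 lower, the latter Mpo, with -1.69 ± 0.50 (SE; adjusted p = 0.0335 by DESeq2). Mpo averaged 0.437 CPM in AFMC and 1.37 CPM in Hollow. Fibroblast markers also had their highest sum in AFMC replicate 3, at 76134 CPM, against 51720 and 67964 CPM in AFMC replicates 1 and 2. Most of this sum came from Col1a1, Col1a2 and Col3a1, which averaged 24127, 15262 and 19781 CPM in AFMC, so it is largely a sum of collagen transcripts. Pdgfra averaged 273 CPM in AFMC, against 300 CPM in Hollow. In that comparison 6 of 9 fibroblast markers had a positive log2 fold change and 3 a negative one. AFMC replicate 1 was the second highest library for Mmp3 and Mmp13. It had the lowest neutrophil sum of AFMC, 67.7 CPM, below all AFMC-AA-SP libraries, and the lowest fibroblast sum of all libraries. Macrophage markers had their highest sums in these same libraries, 8727 CPM in AFMC replicate 3 and 8643 CPM in AFMC replicate 1. Lyz2 made up most of both sums, at 5308 and 5411 CPM, so this order is largely that of Lyz2. In AFMC against Hollow 8 of 12 macrophage markers had a positive log2 fold change and 4 a negative one, where 52.1% of all tested genes were positive. Osteoclast and giant cell markers, with all 7 detected, summed to 408 to 474 CPM in AFMC-AA-SP, 326 to 826 CPM in AFMC and 326 to 478 CPM in Hollow, and the highest sum was in AFMC replicate 1, the library with the most Mmp9. Markers of T and NK cells, 6 of 8 found, summed to 32.9 to 38.7 CPM in AFMC-AA-SP, 42.2 to 108 CPM in AFMC and 24.3 to 31.9 CPM in Hollow. Those of B and plasma cells, all 7 found, summed to 30.2 to 31.9 CPM in AFMC-AA-SP, 39.9 to 1158 CPM in AFMC and 25.2 to 49.1 CPM in Hollow. Both were highest in AFMC replicate 3. The T and NK sum was 43.6 CPM in AFMC replicate 1 and 42.2 CPM in AFMC replicate 2. For that sum every AFMC library lay above all libraries of the other groups. Schwann cell markers had their lowest sum, 459.9 CPM, in AFMC replicate 3, where Timp3 was also lowest. Adipocyte markers, all 8 found, summed to 702 to 864 CPM in AFMC-AA-SP, 253 to 999 CPM in AFMC and 639 to 863 CPM in Hollow. The sum was lowest in AFMC replicate 3 and highest in AFMC replicate 1. Fabp4 made up most of it, at 209 and 940 CPM in those libraries, so this order is largely that of Fabp4. By log2 fold change 8 of 8 adipocyte markers were higher in AFMC-AA-SP against AFMC, with a median of 2.13 and 5 called by DESeq2. In AFMC against Hollow 8 of 8 were lower, with a median of -0.64 and 2 called by DESeq2. In AFMC-AA-SP against Hollow 8 of 8 were higher, with a median of 0.997 and 0 called by DESeq2. Of all tested genes 48.0%, 52.1% and 50.2% were positive in these comparisons, in the same order. DESeq2 called 4.12%, 7.08% and 0.0512% of all. edgeR called 0 in each, and the comparisons share libraries. Skeletal muscle markers, 7 of 8 found, summed to 699 to 2185 CPM in AFMC-AA-SP, 246 to 2109 CPM in AFMC and 131 to 2090 CPM in Hollow. Muscle content was thus uneven within each group. The part of these cells in the values of the family was not tested.

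The rest of the protease system was described from lists of related genes. Of 16 further MMPs, 15 were found and 12 tested, and edgeR called 0 in each of the 3 comparisons. At an unadjusted p under 0.05 there were 3 higher in AFMC against Hollow, 2 higher in AFMC-AA-SP against AFMC and 1 higher in AFMC-AA-SP against Hollow, and 0 lower. Of all tested genes 8.40% were higher and 11.1% lower at that p in AFMC against Hollow. The shares were 10.1% and 7.21% in AFMC-AA-SP against AFMC, and 1.69% and 1.55% in AFMC-AA-SP against Hollow. DESeq2 called 1, Mmp25 in AFMC against Hollow (adjusted p = 0.0174), where it called 7.08% of all. Mmp25, an enzyme anchored in the leukocyte membrane, averaged 16.2 ± 8.65 CPM in AFMC, against 7.49 ± 0.834 CPM in Hollow. Its log2 fold change was 1.11 ± 0.32 (SE), and 0.58 without AFMC replicate 3. Without AFMC replicate 2 it was called (1.32, adjusted p = 0.0492 by edgeR), in the fit that called 905 genes in place of 0. Mmp11, stromelysin 3 of fibroblasts, averaged 11.9 ± 0.944 CPM in AFMC, against 8.74 ± 1.47 CPM in Hollow, for a log2 fold change of 0.44 ± 0.14 (SE). Mmp7, matrilysin, had 11.5, 21.9 and 9.80 CPM in AFMC-AA-SP, with 0.948, 4.86 and 1.09 CPM in AFMC and 0.622, 1.28 and 14.7 CPM in Hollow. All AFMC-AA-SP libraries lay above AFMC, and Hollow replicate 3 lay among them. The log2 fold change was 2.68 ± 1.08 (SE), with adjusted p = 0.259 by edgeR.

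Among 12 binding partners and regulators of MMPs, edgeR called 0 in each comparison. At an unadjusted p under 0.05 there were 2 higher and 1 lower in AFMC against Hollow and 1 higher and 3 lower in AFMC-AA-SP against AFMC. There were 0 in AFMC-AA-SP against Hollow. The shares of all tested genes at that p are those given above for the further MMPs. DESeq2 called 1 higher and 1 lower, Sdc1 and Timp4, in AFMC against Hollow, where it called 7.08% of all. It called the same genes, with opposite signs, in AFMC-AA-SP against AFMC, where it called 4.12% of all. In AFMC-AA-SP against Hollow it called 0 of the list. The heparan sulfate proteoglycan Sdc1, a known MMP substrate, averaged 366 ± 24.9 CPM in AFMC-AA-SP, 486 ± 34.3 CPM in AFMC and 373 ± 33.8 CPM in Hollow, with log2 fold changes of 0.38 ± 0.10 for AFMC against Hollow and -0.41 ± 0.10 for AFMC-AA-SP against AFMC (SE). Its adjusted p were 0.117 and 0.127 by edgeR, and 0.00804 and 0.00428 by DESeq2. Timp4, the least abundant of the inhibitors measured, had 6.34, 6.32 and 6.19 CPM in AFMC-AA-SP, with 3.04, 2.92 and 3.13 CPM in AFMC and 7.24, 3.58 and 4.96 CPM in Hollow. AFMC lay below both other groups in every library. The log2 fold change for AFMC-AA-SP against AFMC was 1.05 ± 0.23 (SE), with adjusted p = 0.122 by edgeR and 0.00725 by DESeq2, and that for AFMC against Hollow was -0.80 ± 0.23 (SE), with adjusted p = 0.136 by edgeR and 0.0485 by DESeq2.

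Of 27 ADAM and ADAMTS genes, relatives of MMPs that shed surface proteins or cut proteoglycans, edgeR again called 0, with 5 higher and 7 lower at an unadjusted p under 0.05 in AFMC against Hollow, 5 higher and 1 lower in AFMC-AA-SP against AFMC and 2 higher in AFMC-AA-SP against Hollow. The shares of all tested genes at that p are 8.40% higher and 11.1% lower, 10.1% higher and 7.21% lower, and 1.69% higher and 1.55% lower in the same order of comparisons. DESeq2 called 2 higher and 1 lower in AFMC against Hollow, which were Adam8 (adjusted p = 0.00526), Adamts3 (0.0444) and Adamts20 (0.0202), and 1 higher in AFMC-AA-SP against AFMC, Adamts9 (0.0476). Of all genes DESeq2 called 7.08% in AFMC against Hollow and 4.12% in AFMC-AA-SP against AFMC. Adamts3 is named here after its value was seen. Adam8, a sheddase of leukocytes, averaged 134 ± 1.36 CPM in AFMC, against 87.1 ± 5.58 CPM in Hollow, for a log2 fold change of 0.63 ± 0.15 (SE). Adamts9, which cuts versican, averaged 56.2 ± 1.40 CPM in AFMC-AA-SP, against 40.8 ± 6.01 CPM in AFMC, for a log2 fold change of 0.46 ± 0.13 (SE). In the plasminogen system, whose product plasmin opens several MMP proenzymes, 10 of 11 genes were tested and edgeR called 0, and 1 was higher at an unadjusted p under 0.05 in AFMC against Hollow, 1 lower in AFMC-AA-SP against AFMC and 1 lower in AFMC-AA-SP against Hollow. DESeq2 called 1, Plaur in AFMC against Hollow (adjusted p = 0.0401), where it called 7.08% of all. Plaur, the urokinase receptor, averaged 68.5 ± 3.84 CPM in AFMC-AA-SP, 96.6 ± 17.3 CPM in AFMC and 68.0 ± 12.9 CPM in Hollow, with log2 fold changes of 0.51 ± 0.15 for AFMC against Hollow and -0.50 ± 0.15 for AFMC-AA-SP against AFMC (SE).

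Cathepsins and cystatins, the lysosomal proteases and their inhibitors, had 16 of 17 genes tested and 0 called by edgeR. At an unadjusted p under 0.05, 7 were higher in AFMC against Hollow, where 8.40% of all tested genes were. In AFMC-AA-SP against AFMC 1 was lower, against 7.21% of all, and in AFMC-AA-SP against Hollow 2 were higher, against 1.69% of all. DESeq2 called 4 higher in AFMC against Hollow, Ctss (adjusted p = 0.0219), Ctsz (0.0312), Cst7 (0.0370) and Ctsb (0.0182). It called 7.08% of all genes in that comparison, and 0 genes of this list in the others. Ctsb is named after its value was seen. In AFMC against Hollow 14 of 16 had a positive log2 fold change, with a median of 0.34, where 52.1% of all tested genes were positive. Ctss, a cathepsin of macrophages that works outside the lysosome too, averaged 472 ± 88.4 CPM in AFMC, against 315 ± 44.5 CPM in Hollow, for a log2 fold change of 0.58 ± 0.17 (SE). In AFMC-AA-SP against AFMC 12 of 16 were negative, with a median of -0.18, and in AFMC-AA-SP against Hollow 14 of 16 were positive, with a median of 0.20. The share of positive values among all tested genes was 48.0% in AFMC-AA-SP against AFMC and 50.2% in AFMC-AA-SP against Hollow. These comparisons share libraries.

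The remaining genes of smallest p in these lists were not called by edgeR in the fit of all 9 libraries. In AFMC against Hollow, the log2 fold change was -1.14 ± 0.33 for Adamts20, 0.53 ± 0.16 for Ctsz and -0.17 ± 0.09 for Plat, the tissue plasminogen activator (SE). Without AFMC replicate 2, edgeR called Adamts20 (-1.58, adjusted p = 0.0245), Ctsz (0.68, adjusted p = 0.0354) and Ctss (0.73, adjusted p = 0.0355). That fit called 905 genes in place of 0. In AFMC-AA-SP against AFMC the log2 fold change was -0.25 ± 0.08 for Adam15, -0.38 ± 0.16 for Ctsz, 0.24 ± 0.11 for Ctso, -0.67 ± 0.31 for Mmp25 and -0.26 ± 0.13 for S100a10 (SE). Mmp25 had -0.14 there without AFMC replicate 3. Without AFMC replicate 2, Adamts9 was called (0.58, adjusted p = 0.0474 by edgeR), in a fit that called 580 genes in place of 0.

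In AFMC-AA-SP against Hollow, Adam8 had a log2 fold change of 0.51 ± 0.15, Adam33 0.36 ± 0.15, Cst7 0.61 ± 0.25 and the macrophage protease Ctsl 0.42 ± 0.18 (SE). Mmp11 had 0.30 ± 0.14 and Mmp25 0.44 ± 0.32 in that comparison. On the lower side were Anxa2 at -0.24 ± 0.15, and the surface proteins Cd44 at -0.18 ± 0.12 and Bsg, an inducer of MMPs, at -0.15 ± 0.10 (SE). Adjusted p by edgeR was 0.9999 for each of these.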

How the data were processed

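RNA of 9 libraries, 3 per conduit group, had been sequenced from poly(A)-selected, strand-keeping libraries, per the labels' protocols. The authors deposited whole-number read counts per gene, unscaled, and FPKM values, both named so per the file headers, which give no formula. Which aligner, counting program and build they used is not given in the sources used here. Groups follow the sample titles, and the family and the related lists were chosen with earlier results of these data known.

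Counts were fitted in R 4.3.3 with edgeR 4.0.16 over all 15659 genes kept by filterByExpr, with TMM scaling, all 9 libraries and a term per group. The quasi-likelihood test was two-sided, with Benjamini-Hochberg adjusted p called under 0.05 over all genes tested. The common biological coefficient of variation was 0.197. A standard error is the log2 fold change divided by the square root of F, and intervals are at 95%. CPM use TMM-scaled totals. Likeness used log2(CPM + 0.5). The pipeline was tested on simulated counts.

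Named genes are all members, up to 2 genes of smallest p per related list and comparison with a mean of at least 5 CPM in a group, and the 3 most like genes per member with a gene symbol. Alternatives were RLE scaling, no filter, the 2 groups alone, DESeq2 1.42.0, a replicate block, a lowess offset on gene length and each library left out. Total counts set the counting precision, and no member fell below 419 counts in a library. A marker gene and a gene of the plasminogen list are not reported here, and the Schwann cell marker sum was taken without the first.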

Additional observations from a re-analysis of the deposited data

How the results depend on the processing

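Of 324 log2 fold changes of the 9 members under the alternatives, 311 kept their direction. With the gene length offset Mmp19 had -0.0027 in AFMC against Hollow. With 1 library left out, values in AFMC against Hollow ran from -0.55 to 0.25 for Mmp12, -0.11 to 0.15 for Mmp19 and -0.40 to 0.081 for Timp1. In AFMC-AA-SP against Hollow they ran from -0.039 to 0.18 for Mmp2, -0.18 to 0.57 for Mmp3, -0.53 to 0.12 for Mmp13 and -0.096 to 0.054 for Mmp14. The log2 ratio of Mmp9 to Timp1 in AFMC-AA-SP against AFMC ran from -0.52 to 0.022, the last without AFMC replicate 1. The planned ratio of Mmp2 to Timp2 was not run.

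edgeR called 0 genes in each comparison. DESeq2 called 1021 in AFMC against Hollow (2 of them members), 594 in AFMC-AA-SP against AFMC (1 member) and 8 in AFMC-AA-SP against Hollow. Without the filter on low counts edgeR called 6 in AFMC-AA-SP against AFMC. With 1 library left out it called 0 to 905 genes and 0 to 1 members in AFMC against Hollow, and 0 to 580 genes and 0 to 1 members in AFMC-AA-SP against AFMC. The highest counts came without AFMC replicate 2. The cause was not tested.

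The replicate numbers are not said to mark a shared animal or day, and correlations of same-numbered libraries' deviations ran from -0.08 to 0.18, so they were not read as pairs. With a replicate block, edgeR called 1 gene in AFMC against Hollow and 2 in AFMC-AA-SP against AFMC, 1 of them Mmp13 at -1.47 (adjusted p = 0.0425). Libraries of 18314489 counts or more leave the spread between 3 libraries, not counting error, as the limit for these genes.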

Other observations

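Further MMPs on chromosome 8 near the family's cluster were low, and their libraries did not follow 1 order. Mmp8, the neutrophil collagenase, had 10.4, 5.29 and 8.32 CPM in AFMC-AA-SP, while it had 3.44, 5.62 and 18.9 CPM in AFMC and 5.29, 1.98 and 5.84 CPM in Hollow. Its highest library was AFMC replicate 3, as for Mmp3 and Mmp13. Mmp10, a stromelysin like Mmp3, stayed between 0.513 and 0.936 CPM in all 9 libraries. Mmp27, named after its values were seen, averaged 1.03 ± 0.419 CPM in AFMC-AA-SP, against 0.207 ± 0.0458 CPM in AFMC (SD, n = 3 each; adjusted p = 0.163 by edgeR). Mmp1 had 8 counts over all 9 libraries and Mmp20 had 3.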
